A study of Mus musculus with 12 samples.

Results

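The citric acid cycle oxidises acetyl units to carbon dioxide in the mitochondrial matrix and passes the electrons to the respiratory chain, which supplies most of the ATP of the beating heart. Its slowest oxidation is commonly that of 2-oxoglutarate, carried out by a complex with an E1 dehydrogenase (Ogdh), an E2 succinyltransferase (Dlst) and an E3 lipoamide dehydrogenase (Dld). Ogdhl encodes a relative of Ogdh that has been described mainly in brain and liver and can stand in as the E1 subunit. Glucocorticoids, acting through the glucocorticoid receptor encoded by Nr3c1, regulate fuel use in many tissues. Here Ogdhl was examined with 8 genes of the cycle: Ogdh, Dlst and Dld of the 2-oxoglutarate dehydrogenase complex, citrate synthase (Cs), the isocitrate dehydrogenases Idh2 and Idh3a, fumarase (Fh1) and mitochondrial malate dehydrogenase (Mdh2). They were chosen by symbol, and each of the 9 symbols matched 1 row of a table of 24918 genes. All 9 were among the 14721 genes tested, which reached log2 of 10 in 3 or more of the 12 libraries.

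Whole hearts of untreated C57BL/6 mice, taken at 2 months of age, gave the RNA for 4 groups of 3 libraries. Male and female floxed mice carried GRloxP,loxP, homozygous loxP sites around the receptor gene, without Cre by their titles. Male and female cardioGRKO mice carried GRloxP/loxP together with αMHCCre/+, a Cre transgene driven by the promoter of the α-myosin heavy chain gene and active in cardiomyocytes. All 4 groups thus shared the floxed receptor allele, and only the cardioGRKO groups carried Cre, so the deletion and the transgene cannot be told apart. Because every one of the 12 samples is entered as wild-type under genotype, the groups rest on the titles. Whether each library stands for its own animal is not stated, so p-values reflect the spread among these libraries alone, and that spread may be technical.

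The targeted gene Nr3c1 was lower in male cardioGRKO than in male floxed libraries, at a mean log2 value of 10.85 against 11.41. It went against the labels in females, at 10.88 in the libraries labelled female cardioGRKO and 10.74 in those labelled female floxed. Every direction given below for females therefore follows labels that Nr3c1 puts in doubt. The libraries labelled female floxed 1 and 2 also held corneal epithelial transcripts (Krt12 at 13.13 and 13.98, against 7.16 to 8.49 in the other 10). Cardiomyocyte transcripts led all libraries, with Myh6, the adult cardiac myosin heavy chain, at 19.34 to 19.51. The values are the log2 values deposited by the authors after normalization between libraries. They carry no sequencing depth, and the precision is given by the spread between libraries, whose median SD within a group was 1.73% to 1.99%. In bulk tissue, fewer cells of a type and less RNA per cell cannot be told apart.

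Ogdhl set the male floxed hearts apart from all others. Its log2 value was 12.11, 12.09 and 12.07 in the 3 male floxed libraries and 10.05, 9.99 and 10.09 in the 3 male cardioGRKO libraries. In the libraries labelled female floxed it was 9.96, 9.97 and 9.90, and in those labelled female cardioGRKO 9.91, 9.97 and 9.91. The 3 male floxed libraries were thus high and the other 9 low, with a gap between these sets that exceeded any spread within a group.

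The male difference in Ogdhl is the reason this gene was chosen, so it is described here without a test. Its mean was 12.09 ± 0.020 (SD, n = 3) in male floxed and 10.04 ± 0.048 (n = 3) in male cardioGRKO hearts, a difference of -2.04 (SE 0.028) that left 24.2% of the floxed level. It was the lowest of the 14721 differences between the male groups. It is not stated whether the choice of genes also drew on the groups labelled female, so tests in females may not be independent of it. In those groups Ogdhl was 9.94 ± 0.034 in floxed and 9.93 ± 0.033 in cardioGRKO libraries (n = 3 each). The difference of -0.016 (SE 0.028) did not pass limma's test (adjusted p = 0.72), and the libraries of both groups overlapped. The female and the male difference lay 2.03 apart (SE 0.039). Between the sexes, floxed libraries labelled female held 22.6% of the Ogdhl level of male floxed libraries, while among cardioGRKO libraries the females held 92.2% of the male level. From high to low, male floxed came before male cardioGRKO, then the libraries labelled female floxed and lastly the female cardioGRKO ones. The last 2 groups overlapped, and the gap of 0.10 between male cardioGRKO and female floxed was larger than the spread within those groups.

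**Figure D1:**
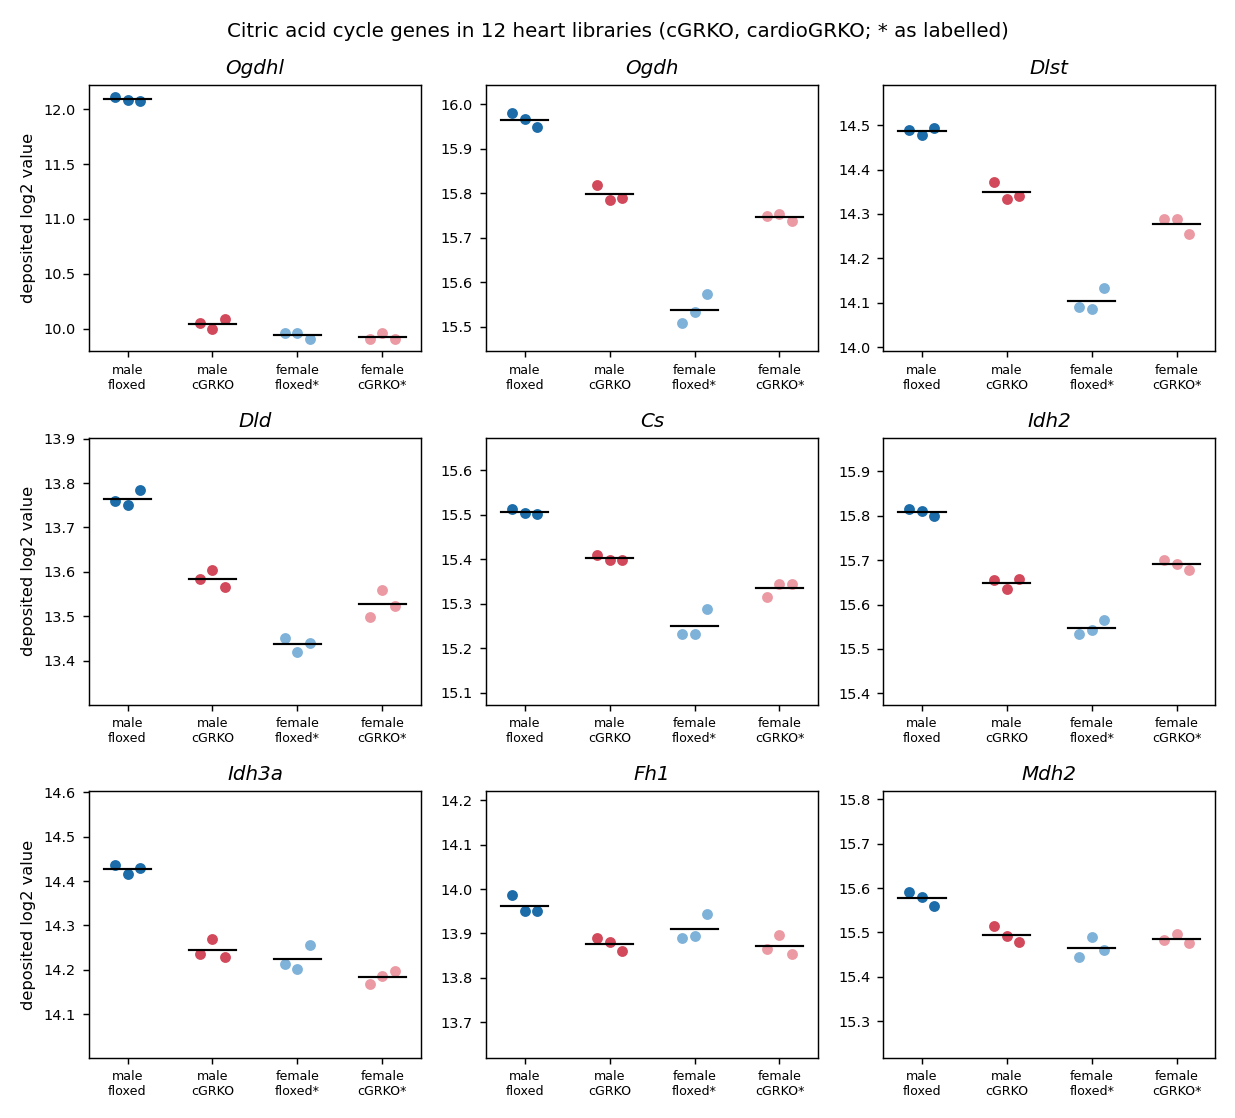
Deposited log2 values (vertical axes, scaled separately for Ogdhl and over an equal span of 0.6 for the other genes) of the 9 genes in 12 heart libraries (points, in order of replicate number) with the group mean of 3 libraries (lines); cGRKO is cardioGRKO and an asterisk marks groups named as labelled. Ogdhl stands near 12.09 in male floxed hearts and between 9.90 and 10.09 in the other 9 libraries, while Ogdh, Dlst, Dld and Cs are lowest in the libraries labelled female floxed.

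Ogdh and Ogdhl are paralogs, and their promoters are shown because the ratio of these 2 genes differed so widely between the male groups. RefSeq promoter windows (build GRCm38.p6, not the mm9 build of the deposited table) were found for 8 of the 9 genes. Given 5′ to 3′ are the 250 bases before the annotated start of Ogdhl, chr14:32321769-32322018 on the plus strand, and before the first annotated start of Ogdh, chr11:6291347-6291596 on the plus strand. Capitals mark TGACG or its reverse complement CGTCA, the core of the cyclic AMP response element.
Ogdhl: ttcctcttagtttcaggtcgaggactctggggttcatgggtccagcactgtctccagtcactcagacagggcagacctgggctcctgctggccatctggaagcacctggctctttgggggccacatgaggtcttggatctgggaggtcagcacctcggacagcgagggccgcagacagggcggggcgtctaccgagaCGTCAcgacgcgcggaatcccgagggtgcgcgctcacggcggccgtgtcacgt
Ogdh: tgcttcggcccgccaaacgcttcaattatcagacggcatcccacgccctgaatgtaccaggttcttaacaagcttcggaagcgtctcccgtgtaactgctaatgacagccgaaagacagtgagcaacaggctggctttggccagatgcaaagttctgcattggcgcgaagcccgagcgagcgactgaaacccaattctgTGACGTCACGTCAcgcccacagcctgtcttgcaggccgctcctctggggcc

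The stretch of Ogdhl held 1 copy of this core, 53 bases before the start, and that of Ogdh held the whole palindrome TGACGTCA 51 bases before the start, overlapping the core on both strands, with a further core beside it. Over all 32851 windows of 300 bases, 50 of them after the start, 20.8% held the core and 1.79% the palindrome on either strand. Both were searched after the sequences had been seen. The palindrome, and with it the core, also stood in the window of Mdh2, 127 bases before its start. Dld and Fh1 held the core without the palindrome, 26 and 6 bases after their starts. Ogdh has 6 annotated windows, and those numbered 4 to 6 lacked the palindrome. The palindromic glucocorticoid receptor site, AGAACA followed after any 3 bases by TGTTCT (in 0.00913% of windows), its AGAACA arm, which the palindrome contains (19%), and the estrogen-related receptor site TCAAGGTCA (0.423%) were searched on both strands and matched no window of the 8 genes. These counts describe letters within 300 bases and say nothing of binding.

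The longest coding transcripts of Ogdhl and Ogdh shared 0 exact stretches of 50 bases with each other or with transcripts of any other gene in GENCODE M21. How the reads themselves were placed was not examined. Among the 9 genes only Cs shared such stretches, 4% of them, all with Csl, so part of the Cs signal could belong to that copy. Per kilobase of exon, on the linear scale of the deposited values, Ogdh exceeded Ogdhl 12.5-fold in male floxed hearts. The excess was 45.8-fold in male cardioGRKO, 41.1-fold in female floxed and 48.0-fold in female cardioGRKO libraries. Ogdhl was the lowest of the 9 genes per kilobase in all 4 groups, and Mdh2 and Idh2 were the highest. Within a library, the log2 ratio of Ogdhl to Ogdh differed by -1.88 between the male groups. It was -5.55, -5.57 and -5.67 in the floxed libraries with female labels and -5.84, -5.79 and -5.83 in those labelled female cardioGRKO, without overlap. This female difference of -0.22 gave p = 0.1 in an exact two-sided permutation test, the smallest that 3 against 3 libraries allow, with Ogdh called higher there and Ogdhl not called.

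In male hearts the other 8 genes of the cycle were lower in cardioGRKO than in floxed libraries by much less than Ogdhl, and in the groups labelled female 5 of the 9 genes rose. The male differences of the 8 ranged from -0.18 for Idh3a to -0.082 for Mdh2, with a median of -0.15 or 9.81% less. After quantile normalization, however, Mdh2 was 0.060 higher and those of Ogdh, Dlst and Cs shrank to -0.042, -0.031 and -0.0096. The male libraries did not overlap for any of the 9 genes, a pattern that 22% of all tested genes showed in this direction. As the choice of genes used this comparison, nothing is read from that count. In females, limma called 5 of the 9 higher (Ogdh, Dlst, Dld, Cs and Idh2) and 0 lower, against 15.2% and 14% of all tested genes. At an unadjusted p under 0.05, 1 gene was lower. The same 5 genes had female cardioGRKO libraries wholly above the floxed ones, as did 21.6% of all tested genes, and Idh3a had them wholly below, as did 19.1%. The combination of male libraries wholly lower and female libraries wholly higher was seen in 7.19% of all tested genes.

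Among the partners in the 2-oxoglutarate dehydrogenase complex, Ogdh itself, the E1 subunit that heart muscle uses, was 15.98, 15.97 and 15.95 in male floxed and 15.82, 15.79 and 15.79 in male cardioGRKO libraries. The difference of -0.17 (SE 0.016) left 89.0% of the floxed level. In the libraries labelled female floxed it was 15.51, 15.53 and 15.57, the lowest of all, and in those labelled female cardioGRKO 15.75, 15.75 and 15.74. Ogdh rose there by 0.21 (SE 0.016), or 15.6% (limma, adjusted p = 6.6e-08), and the cardioGRKO libraries of both sexes ended close to each other.

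Dlst, the E2 core that transfers the succinyl group, followed the same course. Its values were 14.49, 14.48 and 14.49 in male floxed and 14.37, 14.33 and 14.34 in male cardioGRKO libraries, a difference of -0.14 (SE 0.017). The libraries labelled female floxed stood at 14.09, 14.09 and 14.13 and those labelled female cardioGRKO at 14.29, 14.29 and 14.25. This rise of 0.17 (SE 0.017), or 12.8%, was called (limma, adjusted p = 9.1e-07), and the libraries did not overlap in either sex.

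Dld, the E3 subunit that pyruvate, 2-oxoglutarate and branched-chain oxoacid dehydrogenases share with the glycine cleavage system, was 13.76, 13.75 and 13.78 in male floxed and 13.58, 13.60 and 13.57 in male cardioGRKO libraries. Its male difference of -0.18 (SE 0.018) was among the widest of the 8. Under the female labels it was 13.45, 13.42 and 13.44 in floxed and 13.50, 13.56 and 13.52 in cardioGRKO libraries. Dld rose by 0.090 (SE 0.018, limma, adjusted p = 0.0016), a call lost after quantile normalization (0.042, adjusted p = 0.098). Within the complex, the ratio of Dlst to Ogdh differed by 2.11% between the male groups and by -2.39% between the female ones. For Dld to Ogdh the differences were -0.84% and -7.87%, for Ogdhl to Ogdh -72.8% and -14.4%, and for Fh1, outside the complex, to Ogdh 5.91% and -15.7%.

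Citrate synthase, which condenses acetyl-CoA with oxaloacetate, showed little spread among the male libraries. Cs stood at 15.51, 15.50 and 15.50 in male floxed and 15.41, 15.40 and 15.40 in male cardioGRKO libraries (difference -0.11, SE 0.015). In the libraries labelled female floxed it was 15.23, 15.23 and 15.29, with the third library above the other two, and in those labelled female cardioGRKO 15.32, 15.34 and 15.34. The rise of 0.084 (SE 0.015) was called (limma, adjusted p = 0.00066). Without the libraries labelled female floxed 1 and 2 it was 0.046 (adjusted p = 0.070), and after quantile normalization 0.011 (adjusted p = 0.75).

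Idh2 and Idh3a, subunits of different isocitrate dehydrogenases, differed in their female values. Idh2, the NADP-dependent mitochondrial enzyme, was 15.82, 15.81 and 15.80 in male floxed and 15.66, 15.63 and 15.66 in male cardioGRKO libraries (difference -0.16, SE 0.013). Idh2 was 15.53, 15.54 and 15.57 in the floxed libraries with female labels and 15.70, 15.69 and 15.68 in those labelled female cardioGRKO. It rose by 0.14 (SE 0.013, limma, adjusted p = 3.8e-07), or 10.4%, and the groups were clear of each other.

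Idh3a, the catalytic subunit of the NAD-dependent enzyme, had the widest male difference of the 8 on the deposited scale (-0.18, SE 0.017), close to that of Dld. Its values went from 14.44, 14.42 and 14.43 in floxed to 14.23, 14.27 and 14.23 in cardioGRKO libraries. After quantile normalization the male difference was -0.072 for Idh3a and -0.16 for Dld. Idh3a was 14.21, 14.20 and 14.26 in the floxed libraries with female labels and 14.17, 14.19 and 14.20 in those labelled female cardioGRKO. Its female difference of -0.040 (SE 0.017) did not pass the test (limma, adjusted p = 0.092). It passed, in the same downward direction, without the library labelled female floxed 2 (-0.051, adjusted p = 0.048), without those labelled female floxed 1 and 2 (-0.072, adjusted p = 0.021) and after quantile normalization (-0.10, adjusted p = 0.00024). The log2 ratio of Idh2 to Idh3a was accordingly 0.18 higher in the libraries labelled female cardioGRKO (exact two-sided permutation test, p = 0.1, the smallest possible), against a difference of 0.022 between the male groups. The other subunits of the NAD-dependent enzyme, Idh3b and Idh3g, named after their values were seen, differed in females by 0.0022 (limma, adjusted p = 0.94) and 0.065 (adjusted p = 0.016), the latter not called after quantile normalization (0.0042, adjusted p = 0.89).

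Fumarase and malate dehydrogenase, which act late in the cycle, had the smallest male differences of the 9 genes on the deposited scale. Fh1 was 13.99, 13.95 and 13.95 in male floxed and 13.89, 13.88 and 13.86 in male cardioGRKO libraries (difference -0.085, SE 0.018). Under the female labels it was 13.89, 13.90 and 13.94 in floxed and 13.86, 13.90 and 13.85 in cardioGRKO libraries, which overlapped. The female difference in Fh1 of -0.038 (SE 0.018, limma, adjusted p = 0.14) was called without the libraries labelled female floxed 1 and 2 (-0.071, adjusted p = 0.032) and after quantile normalization (-0.078, adjusted p = 0.0022).

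Mdh2, which regenerates oxaloacetate, was 15.59, 15.58 and 15.56 in male floxed and 15.51, 15.49 and 15.48 in male cardioGRKO libraries (difference -0.082, SE 0.015). Under the female labels it stood at 15.44, 15.49 and 15.46 in floxed and 15.48, 15.50 and 15.48 in cardioGRKO libraries. These overlapped, and the difference of 0.021 (SE 0.015) was not called (limma, adjusted p = 0.32), standing at -0.045 after quantile normalization (adjusted p = 0.070). Across the 9 genes the gap between the female and the male difference ranged from 0.048 for Fh1 through 0.38 for Ogdh to 2.03 for Ogdhl. It is given without a test, because the male comparison entered the choice of genes. After quantile normalization this gap turned to -0.045 for Fh1, -0.030 for Idh3a and -0.10 for Mdh2.

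**Figure D2:**
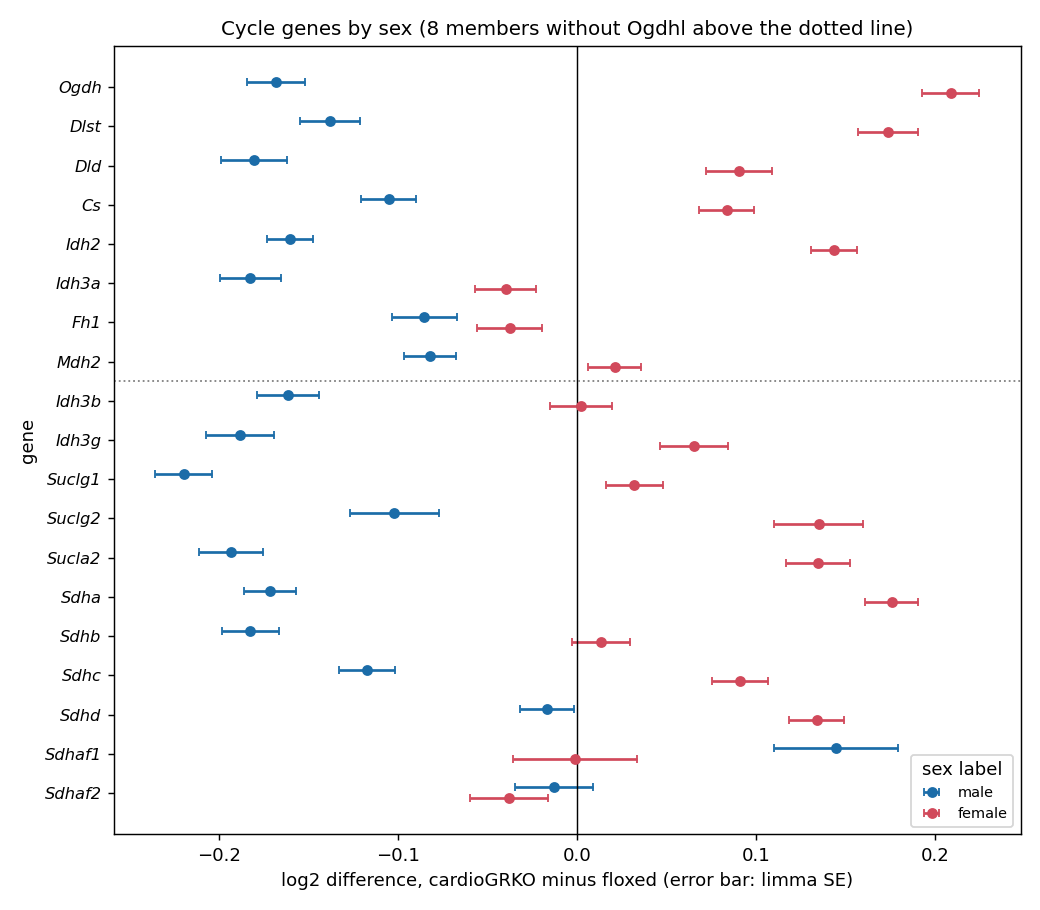
Log2 difference between cardioGRKO and floxed libraries (horizontal axis) with limma's standard error (bars) for 8 cycle genes without Ogdhl (above the dotted line) and for 11 further enzymes and assembly factors (below it), 3 libraries a group, in males and in females as labelled. The male points of the 8 genes lie between -0.18 and -0.082 and the female points between -0.040 and 0.21.

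Male floxed hearts held the highest mean level of all 9 genes, on the deposited scale. The gap to the next group exceeded the spread for each of them, from 0.053 for Fh1 to 2.04 for Ogdhl. How many of all tested genes share this pattern was not counted, so nothing about the cycle is read from it. The libraries labelled female floxed held the lowest mean of Ogdh, Dlst, Dld, Cs, Idh2 and Mdh2, and the neighbouring group overlapped with them for Mdh2 alone. For Idh3a, male cardioGRKO and female floxed overlapped in the middle of the order, and for Fh1 the 3 groups below male floxed overlapped from neighbour to neighbour. The levels between the sexes are a description, without a test, since both rest on libraries of the male comparison, which entered the choice of genes. In floxed hearts the female minus male difference of the 8 genes other than Ogdhl ranged from -0.43 for Ogdh to -0.053 for Fh1. After quantile normalization it was -0.27 for Ogdh and -0.030 for Idh3a, and it turned to 0.032 for Fh1 and 0.037 for Mdh2.

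In cardioGRKO hearts the sexes were closer, with differences from -0.072 for Dlst to 0.041 for Idh2. After quantile normalization the difference turned to 0.016 for Ogdh and moved to -0.068 for Mdh2, from -0.0097.

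Most remaining enzymes of the mitochondrial cycle fell in male cardioGRKO hearts. Of 11 tested genes, limma called 8 lower and 1 higher, against 14.6% and 12.8% of all genes, with a median difference of -0.16 beside -0.0021 over all genes tested. Suclg1, the shared subunit of succinyl-CoA ligase, fell by 0.22 (SE 0.016, adjusted p = 1.8e-08) and Sucla2, its ATP-forming subunit, by 0.19 (SE 0.018, adjusted p = 3.4e-07). Sdha and Sdhb, the flavoprotein and iron-sulphur subunits of succinate dehydrogenase, fell by 0.17 and 0.18 (adjusted p = 1.3e-07 and 1.8e-07). The exception was Sdhaf1, an assembly factor of succinate dehydrogenase, which rose by 0.14 (adjusted p = 0.0047) and was named after its value was seen. The counts of 8 and 1 were the same after median centring, after quantile normalization and without any single library. The falls were smaller after quantile normalization, at -0.076 for Sdha, -0.11 for Sdhb and -0.11 for Sucla2. Sdhaf3 and Sdhaf4, also listed, matched no symbol and were not analysed here.

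In the libraries labelled female cardioGRKO 6 of the same 11 genes rose and 0 fell (limma, and 0 lower at an unadjusted p under 0.05), against 15.2% and 14% of all genes tested, with a median difference of 0.065. Sdha rose by 0.18 (SE 0.015, adjusted p = 1.6e-07), Sdhd, a membrane anchor of succinate dehydrogenase, by 0.13 (adjusted p = 5.5e-06), Sucla2 by 0.13 (adjusted p = 3.0e-05) and Sdhc, the other anchor, by 0.091 (adjusted p = 0.00035). After quantile normalization 4 were called higher, against 2352 of all 14721 genes tested. Sdha then stood at 0.11 and Sdhc at 0.010 (limma, adjusted p = 0.64). In the test of the difference itself, the female change exceeded the male one for 9 of the 11 genes and was below it for Sdhaf1, against 17% and 14.3% of all genes tested. Sdha had the widest gap of the 11, 0.35 (SE 0.021, adjusted p = 1.6e-09). The Sdhaf1 call (-0.15, adjusted p = 0.033) was lost without male floxed 1, male cardioGRKO 1, 2 or 3, female floxed 3, or female cardioGRKO 1 or 3.

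The lists that follow stand against the same shares of all genes tested, 14.6% lower and 12.8% higher in males and 14% lower and 15.2% higher in females. Among the cytosolic counterparts of the cycle, of 4 tested genes, limma called 2 lower and 0 higher in males (against 14.6% and 12.8%, and 0 higher at an unadjusted p under 0.05), Mdh1, the cytosolic malate dehydrogenase, by 0.17 and Idh1, the cytosolic isocitrate dehydrogenase, by 0.21 (adjusted p = 1.8e-06 and 1.9e-05). After quantile normalization the Mdh1 call was lost (-0.020, adjusted p = 0.70). In females 1 of 4 was higher and 0 lower (against 15.2% and 14%, and 0 lower at an unadjusted p under 0.05), ATP citrate lyase (Acly), which makes cytosolic acetyl-CoA for lipid synthesis, by 0.17 (adjusted p = 0.00037). The medians were -0.11 in males and 0.036 in females.

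Complexes that resemble 2-oxoglutarate dehydrogenase, or share Dld and the lipoate cofactor with it, moved in part. Of 13 tested genes, 6 fell and 0 rose in males (limma, against 14.6% and 12.8%, and 0 higher at an unadjusted p under 0.05), with a median of -0.059. The E1 and E2 subunits of the branched-chain oxoacid dehydrogenase led these falls, Bckdhb by 0.38 (SE 0.028, adjusted p = 2.3e-08), Bckdha by 0.22 (adjusted p = 1.3e-07) and Dbt by 0.28 (adjusted p = 6.1e-07), and its inhibitory kinase Bckdk fell by 0.13 (adjusted p = 0.00034). In females 2 rose, Gcsh of the glycine cleavage system by 0.14 (adjusted p = 0.0011) and Bckdk by 0.087 (adjusted p = 0.0067). Another 2 fell, Gldc, which decarboxylates glycine and stood near 3.82, by 0.099 (adjusted p = 0.0029), and the phosphatase Ppm1k by 0.067 (adjusted p = 0.039). These female counts of 2 and 2 of 13 were near the background of 15.2% and 14%. The 3 subunits that fell most in males differed in females by 0.037, 0.0028 and 0.00050 (Bckdhb, Bckdha and Dbt). Under other scalings those female values turned, Bckdha to -0.043 after quantile normalization and Dbt to -6.1e-05 after median centring, with no call.

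Genes of pyruvate entry fell in 9 of 14 cases and rose in 3 in males (limma, against 14.6% and 12.8%, median -0.13). In females 6 rose and 0 fell (against 15.2% and 14%, 1 lower at an unadjusted p under 0.05, median 0.025). Of these 6, Pdhb and Pdk2 were not called after quantile normalization (0.0094 each, adjusted p = 0.74 and 0.70). In males Pdhb, an E1 subunit of pyruvate dehydrogenase, fell by 0.20 (SE 0.020, adjusted p = 6.3e-07), its E2 subunit Dlat by 0.14 (adjusted p = 8.4e-06), the E3-binding protein Pdhx by 0.18 (adjusted p = 1.5e-05) and the inhibitory kinase Pdk2 by 0.13 (adjusted p = 1.8e-05). In females Pdk4, the kinase that restrains pyruvate oxidation in fasting, rose by 0.50 (SE 0.022, adjusted p = 5.6e-11), from 14.03 to 14.53. Pdk4 was also 1 of the 3 genes called higher in males, by 0.090 (adjusted p = 0.0044). Pyruvate carboxylase (Pcx), which refills oxaloacetate, rose in females by 0.23 (adjusted p = 2.7e-05). Dlat rose there by 0.11 (adjusted p = 8.2e-05, but 0.065 after quantile normalization) and Pdk1, another inhibitory kinase, by 0.13 (adjusted p = 0.0012).

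Genes that supply or drain 2-oxoglutarate and other intermediates fell in 14 of 22 cases and rose in 1 in males (limma, against 14.6% and 12.8%, median -0.086). Got1, the cytosolic aspartate aminotransferase, which converts 2-oxoglutarate to glutamate and back, fell by 0.46 (SE 0.016, adjusted p = 1.2e-12), from 14.52 to 14.06, and its mitochondrial partner Got2 by 0.17 (adjusted p = 8.3e-06). Pcca and Mcee, of the route from propionyl-CoA to succinyl-CoA, fell by 0.25 and 0.20 (adjusted p = 3.0e-06 and 6.7e-06). In females 6 of 22 rose and 2 fell, against 15.2% and 14% (median 0.025). Got2 was 1 of the 2 that fell, by 0.058 (limma, adjusted p = 0.048), with overlapping libraries. That call was lost after median centring (-0.059, adjusted p = 0.056) and kept after quantile normalization (-0.077, adjusted p = 0.017). Glul, the glutamine synthetase, a known glucocorticoid target, rose by 0.33 (SE 0.022, adjusted p = 1.2e-08), the glutamate carrier Slc25a22 by 0.16 (adjusted p = 3.7e-05) and Pccb, the partner of Pcca, by 0.13 (adjusted p = 0.00019), while the aspartate-glutamate carrier Slc25a13 fell by 0.12 (adjusted p = 0.00069).

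**Figure D3:**
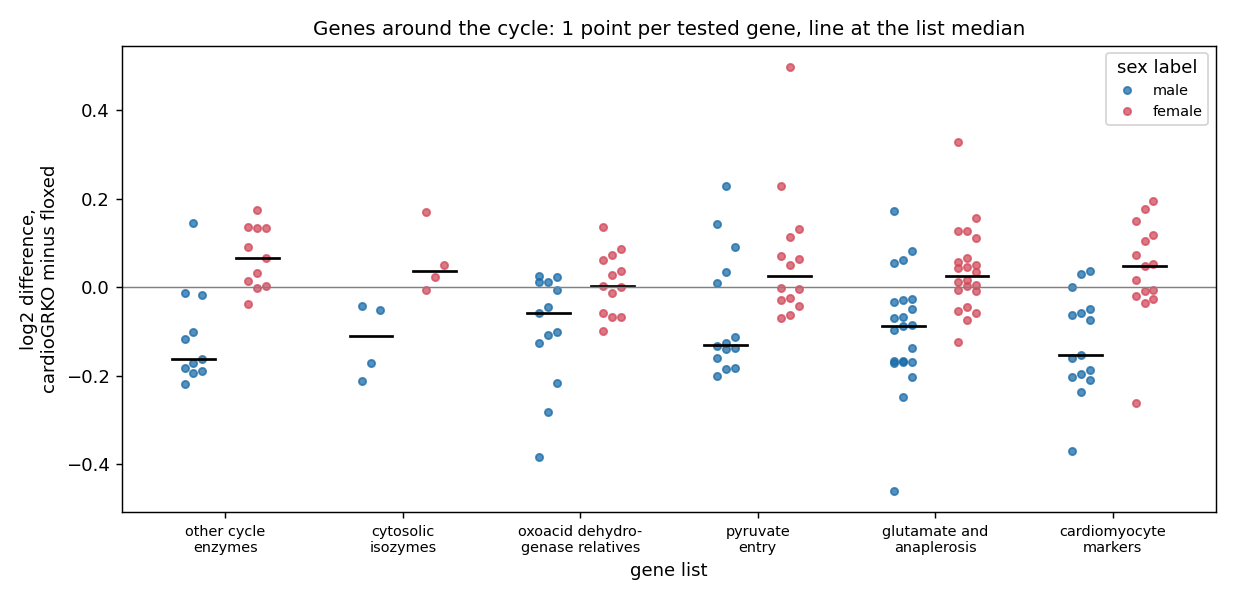
Log2 difference between cardioGRKO and floxed libraries (vertical axis), 1 point per tested gene, for 5 lists around the cycle and for cardiomyocyte markers (horizontal axis), in males and in females as labelled, with the median of each list as a line. Male medians run from -0.16 for the other cycle enzymes to -0.059 for the oxoacid dehydrogenase relatives, and female medians from 0.0028 to 0.065.

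Markers of cell types moved in the same comparisons, in which limma called 14.6% of all genes lower and 12.8% higher in males and 14% and 15.2% in females. Of 15 cardiomyocyte markers limma called 11 lower and 1 higher in males (median -0.15) and 1 lower and 7 higher in females (median 0.049). The log2 of their summed linear values was 21.65 to 21.68 in male floxed and 21.54 to 21.55 in male cardioGRKO libraries. It was 21.52 to 21.57 in the floxed libraries with female labels and 21.57 to 21.58 in those labelled female cardioGRKO. Of 7 markers of atrial muscle 7 rose in males and 7 fell in females. Their sum was lowest in male floxed libraries, at 14.88 to 14.91, and 17.08 to 17.09 in male cardioGRKO ones. In the libraries labelled female floxed it was 16.73 to 16.78, and in those labelled female cardioGRKO 15.66 to 15.69. Endothelial markers fell in 7 of 8 cases and rose in 1 in males, and rose in 4 and fell in 2 in females. Adipocyte markers fell in 4 of 8 cases and rose in 2 in males, and rose in 7 with 0 lower in females (0 lower at an unadjusted p under 0.05). The sums of these endothelial and adipocyte lists were highest in male floxed libraries, 15.54 to 15.56 and 14.64 to 14.68, against 15.33 to 15.45 and 14.31 to 14.55 elsewhere. Fibroblast markers rose in 6 of 7 cases in males and fell in 4 and rose in 1 in females, and skeletal muscle markers rose in 5 of 7 in each sex, with 1 lower in females. Of 5 macrophage markers limma called 0 in males (1 higher at an unadjusted p under 0.05), and 3 rose and 1 fell in females. In males 0 of 8 corneal epithelial markers were called, also at an unadjusted p under 0.05, and 8 of 8 corneal epithelial markers fell in females with a sum of 10.33 to 15.09 among the libraries labelled female floxed. Neuron and glia markers, for a tissue in which Ogdhl is known, summed to 9.70 to 9.81 in all 12 libraries, with 3 of 7 higher and 0 lower in males (1 lower at an unadjusted p under 0.05) and 1 in each direction in females. None of the listed markers in the table was at 0 in all libraries. The part of these cell types in the results on the cycle was not tested.

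Genes were ranked by their likeness to Ogdhl in their course over the 12 libraries, with no threshold set for likeness. Likeness was measured as the root-mean-square distance between profiles centred and scaled to unit SD, among 449 other genes with a range of at least 0.5. Genes of smaller range, or without a proper symbol, were not candidates, so how many genes resemble Ogdhl is not known. The nearest was Phyhd1, a dioxygenase of the 2-oxoglutarate-dependent family, at a distance of 0.13, with group means of 11.23 in male floxed, 10.20 in male cardioGRKO, 10.25 in female floxed and 10.12 in female cardioGRKO libraries. H2-Q4, a class I histocompatibility gene whose reads may be shared with its close copies, came next (distance 0.13), then Tesc, a calcium-binding protein (0.15), Lrg1, a secreted leucine-rich glycoprotein (0.16), and Got1 (0.16). All 5 were high in male floxed libraries and lower in the other 9, by 0.43 to 1.03 in the male comparison. Nr3c1 itself lay at 0.21, at place 8 among the candidates. The cycle genes were farther from Ogdhl, from 0.26 for Idh3a to 0.64 for Dlst. As this likeness turns mostly on the male floxed libraries, it describes these 12 libraries only.

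**Figure D4:**
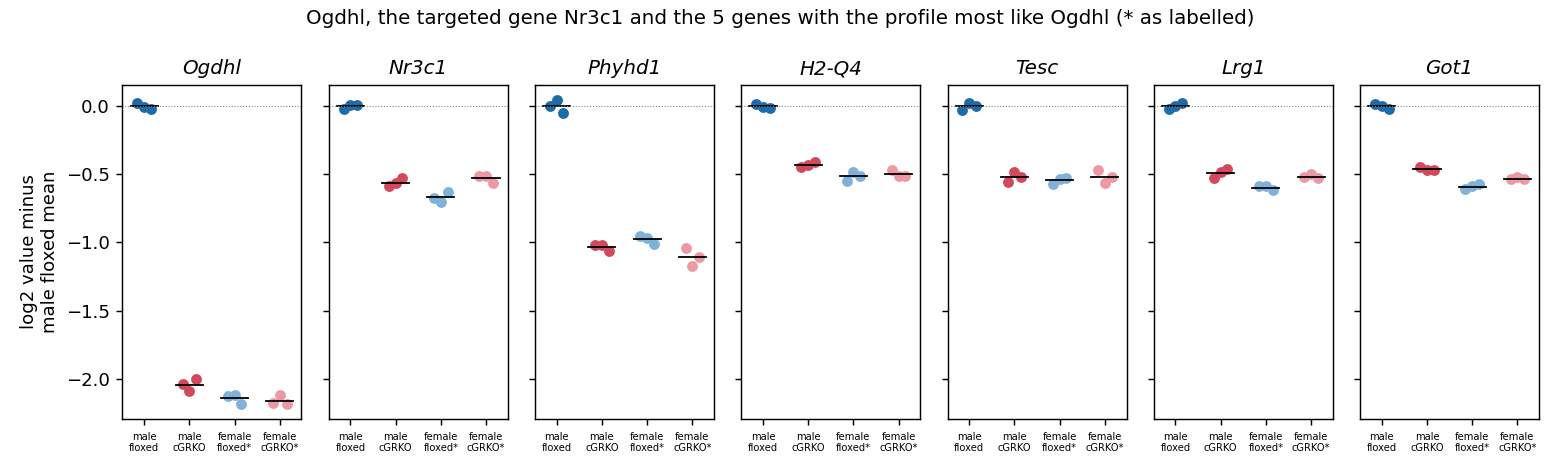
Log2 value minus the mean of the male floxed libraries (vertical axis, shared) of Ogdhl, Nr3c1 and the 5 genes with the nearest profiles in 12 libraries (points) with group means of 3 (lines); cGRKO is cardioGRKO and an asterisk marks groups named as labelled. The 3 male floxed libraries lie at about 0 and the other 9 below them for each gene, near -2.04 for Ogdhl and -0.56 for Nr3c1 in male cardioGRKO hearts.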

How the data were processed

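RNA of 12 mouse hearts' libraries was analysed from 1 deposited table of log2 values. Per the submitters' processing notes, reads were handled with Trim Galore, TopHat2, HTSeq and DESeq2 on build mm9. Versions, annotation and strand settings are not given in the sources used here. Columns were matched to samples by sex, genotype and replicate number, and 0 columns were left unmatched. Genes with at least log2 of 10 in at least 3 libraries were fitted together with limma 3.58.1 in R 4.3.3 (1 mean per group, 8 residual degrees of freedom, intensity trend), and each adjusted p is Benjamini-Hochberg over 14721 genes, called under 0.05. The 9 genes were tested in females only. Ratios within a library were compared by exact permutation. Exon lengths came from GENCODE M21 (GRCm38) and promoters from RefSeq. The scripts were tested on simulated data.

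The 9 genes, lists, markers and tests were chosen with earlier results of these data known. A listed gene of the cycle is not reported here. Named are the 9 genes, Nr3c1, Myh6 and Krt12, up to 4 called genes per list and comparison by smallest p, and the 5 nearest profiles. Alternatives covered filters, scaling, moderation, a replicate block, fits within 1 sex or genotype and left-out libraries.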

Additional observations from a re-analysis of the deposited data

Results flagged for a closer look

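For 5 of the 9 genes all 3 male cardioGRKO libraries lay below the male floxed ones while all 3 libraries labelled female cardioGRKO lay above the female floxed ones. Their female change exceeded the male one by 0.38 for Ogdh, 0.31 for Dlst, 0.27 for Dld, 0.19 for Cs and 0.30 for Idh2. After quantile normalization these gaps were 0.28 for Ogdh, 0.19 for Dlst, 0.20 for Dld, 0.021 for Cs and 0.21 for Idh2. The combined pattern was seen in 7.19% of all tested genes. These differences were not tested, since the male comparison entered the choice of genes. They follow the female labels that Nr3c1 puts in doubt. Were those labels exchanged, each female change would take the opposite sign, and the 5 genes would be lower in both sexes. Of the genes not called in females, Idh3a (-0.040), Fh1 (-0.038) and Ogdhl (-0.016) would turn upward and Mdh2 (0.021) downward. Nr3c1 would be lower by 0.14 in females, against 0.56 in males. Both female groups, at 10.74 and 10.88, stood near the Nr3c1 level of male cardioGRKO (10.85) and below male floxed (11.41). Whether the labels were exchanged was not tested.

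Of the 31 genes named from the other lists, 29 had a change that differed between the sexes by limma's interaction test, at adjusted p from 2.06e-11 to 0.0124, and for 28 of them the female change was the higher. Over all tested genes 17% were called higher and 14.3% lower. The genes had been named for a called change in 1 sex, which enters this difference, and its direction follows the same female labels, so the counts are a description. In the cycle this excess of the female over the male change was 0.25 for Suclg1, 0.35 for Sdha, 0.20 for Sdhb, 0.15 for Sdhd, 0.33 for Sucla2 and 0.21 for Sdhc. Among the cytosolic enzymes it was 0.22 for Mdh1, 0.23 for Idh1 and 0.21 for Acly. Relatives of the complex differed by 0.42 for Bckdhb, 0.22 for Bckdha, 0.28 for Dbt, 0.21 for Bckdk and 0.18 for Gcsh, and by -0.11 for Gldc. Sdhaf1, named outside that rule, differed by -0.15. In pyruvate entry the excess was 0.26 for Pdhb, 0.25 for Dlat, 0.18 for Pdhx, 0.18 for Pdk2, 0.41 for Pdk4, 0.41 for Pcx and 0.29 for Pdk1. Around 2-oxoglutarate it was 0.52 for Got1, 0.31 for Pcca, 0.16 for Mcee, 0.11 for Got2, 0.38 for Glul, 0.32 for Slc25a22 and 0.21 for Pccb. After quantile normalization the excess was 0.19 for Sdha, 0.14 for Suclg1, 0.083 for Sdhc, 0.070 for Sdhb and 0.065 for Sdhd, and the differences of Mdh1 and Got2 were no longer called (0.020 and 0.055, adjusted p = 0.76 and 0.21, limma).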

How the results depend on the processing

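The male difference in Ogdhl stayed between -2.07 and -2.02 without any 1 library. Quantile normalization, the setting that moved most, left 3 of the 9 genes higher and 2 lower in females. Under that setting limma called 2352 of all 14721 tested genes higher and 1896 lower in females. Directions turned under it for Mdh2 in males (0.060), for the sex difference of the change of Idh3a, Fh1 and Mdh2 (-0.030, -0.045 and -0.10), for female minus male in floxed libraries of Fh1, Mdh2 and Sdhb (0.032, 0.037 and 0.047) and in cardioGRKO libraries of Ogdh (0.016). Values called in neither setting also turned, among them Mdh2, Suclg1 and Sdhb in females (-0.045, -0.039 and -0.038) and Sdhd in males (0.029). The cause was not tested. Leaving out the libraries labelled female floxed 1 and 2 leaves 1 library there, which is assumed to vary like the other groups. The downward female differences of Idh3a and Fh1 were then wider and the upward one of Cs smaller, as given above. Among the other cycle enzymes the 1 gene called for a smaller female than male change, Sdhaf1, was not called without the low-value filter (0) or with the replicate block (0).

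Leaving out 1 library at a time gave 5 genes higher and 0 to 1 lower of the 9 in females. Of all 14721 genes tested, these runs called 1815 to 2238 higher and 1578 to 2036 lower in females. For the sex difference of the change they called 0 to 1 lower among the other cycle enzymes, against 1833 to 2334 of all genes tested.

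Replicate numbers were shared between groups. Same-numbered libraries correlated in their deviations at -0.056 to 0.066 in males and -0.11 to 0.15 in females. Differently numbered ones correlated at -0.072 to 0.099 in males and -0.22 to 0.24 in females. With 3 libraries a group, these values cannot decide whether the numbers pair the libraries. The block left 8 of 11 other cycle enzymes lower in males, changed no count above but that of Sdhaf1, and could not be fitted for comparisons between the sexes. Depth is not carried by the deposited values.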
